A study of Mus musculus with 18 samples.

Results

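Potassium channel genes that carry the main repolarizing currents of the heart were described in left ventricle (LV) and right ventricle (RV) of mouse donor hearts after cold storage and reperfusion. The genes were Kcnd2, Kcnd3, Kcnip2, Kcna5, Kcnh2, Kcnq1, Kcnj2, Kcnj11, and Abcc9. They were chosen by name as the subunits of these currents, not by a measured value, but with earlier results of these data known. They make up 9 of the 34989 genes summed from the files. RNA-seq covered 18 libraries from C57B/L6 mice aged 12 weeks by their labels, with 3 libraries for each ventricle after 0, 4, and 8 h of storage. Every heart, including those of the 0 h groups, was flushed with the preservation solution HTK, kept ice-cold in it for its storage time, and then perfused ex vivo with Krebs buffer for 1 h before the ventricles were taken. The 0 h libraries are therefore perfused hearts without storage, and no unperfused heart is among the groups. Where the labels and the study's methods differ (strain name, RNA selection, age, and preservation volume), the labels were followed. The labels do not state the sex of the mice, and the study's methods report mice of both sexes without giving that of each library. The labels also do not state whether libraries of a group came from separate hearts, so the p-values measure the spread between these libraries.

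Potassium channels end the cardiac action potential by letting potassium leave the cell. Kcnd2 and Kcnd3 encode the pore subunits Kv4.2 and Kv4.3 of the fast transient outward current, and Kcnip2 encodes KChIP2, a calcium-binding subunit that brings Kv4 channels to the membrane. Kcna5 encodes Kv1.5, which carries the ultrarapid delayed rectifier of mouse ventricle and of human atrium. Kcnh2 and Kcnq1 encode the pores of the rapid and slow delayed rectifiers, which matter more in large hearts than in the mouse. Kcnj2 encodes Kir2.1 of the inward rectifier that sets the resting potential. Kcnj11 encodes Kir6.2, and Abcc9 encodes the sulfonylurea receptor SUR2, which together form ATP-sensitive channels that open when energy falls, as in ischemia.

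The pore genes share the selectivity filter through which potassium passes, and the coding stretch of it is printed for 6 of them to show how alike or different the members are at their most conserved site. Capitals mark the 15 bases that encode the 5 signature residues of the filter, within 45 bases of coding exon read 5′ to 3′ from GENCODE M21 transcripts (GRCm38).
Kcnd2: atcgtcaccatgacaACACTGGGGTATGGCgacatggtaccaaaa
Kcna5: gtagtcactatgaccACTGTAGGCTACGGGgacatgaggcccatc
Kcnh2: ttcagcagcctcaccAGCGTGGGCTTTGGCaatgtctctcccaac
Kcnq1: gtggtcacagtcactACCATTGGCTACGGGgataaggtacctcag
Kcnj2: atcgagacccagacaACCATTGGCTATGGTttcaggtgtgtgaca
Kcnj11: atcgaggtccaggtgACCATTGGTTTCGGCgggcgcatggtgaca
The Kcnd2 stretch lies within chr6:21217391-21714156 (+) and that of Kcnq1 within chr7:143184540-143191461 (+), each across 2 exons. The other 4 lie in 1 exon each, at chr6:126533730-126533774 (-) for Kcna5, chr5:24325540-24325584 (-) for Kcnh2, chr11:111072192-111072236 (+) for Kcnj2, and chr7:46099481-46099525 (-) for Kcnj11. The voltage-gated Kcnd2 and Kcna5 were identical at 29 of the 45 bases, the most of the 15 pairs, and the inward rectifiers Kcnj2 and Kcnj11 at 28. The least alike pairs had 16 identical bases. Away from this site the members could be told apart in the quantified transcripts. No member shared a stretch of 31 bases with another member. Kcna5 shared 122 of its 2832 such stretches, or 4.31%, with Kcna6, another Kv1 subunit. Kcna6 itself lay between 0.0948 and 0.902 TPM, against 4.73 to 20.1 TPM for Kcna5. The highest share in the rest was 1.6% (Abcc9).

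RefSeq promoters (GRCm38.p6, 250 bases before to 50 after the start of the gene) were at hand for 7 of the 9 members. None was at hand for Kcnq1 and Kcnj11. Those of Kcna5, Kcnip2, and Kcnh2 are printed because these 3 genes passed the test after storage, the first in one direction and the others in the opposite one. Capitals mark matches to GGGCGG on either strand, the core of the GC box.
Kcna5: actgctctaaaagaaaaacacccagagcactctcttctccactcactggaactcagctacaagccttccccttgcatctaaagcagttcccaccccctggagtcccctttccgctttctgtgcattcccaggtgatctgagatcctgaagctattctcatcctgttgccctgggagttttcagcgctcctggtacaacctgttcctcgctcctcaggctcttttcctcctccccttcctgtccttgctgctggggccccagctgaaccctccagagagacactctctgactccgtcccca
Kcnip2: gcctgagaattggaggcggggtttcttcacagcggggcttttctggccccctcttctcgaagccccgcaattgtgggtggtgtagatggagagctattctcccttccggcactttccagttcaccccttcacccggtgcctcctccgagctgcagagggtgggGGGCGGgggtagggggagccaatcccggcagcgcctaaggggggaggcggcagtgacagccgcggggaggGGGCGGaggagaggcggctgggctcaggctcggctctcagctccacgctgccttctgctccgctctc
Kcnh2: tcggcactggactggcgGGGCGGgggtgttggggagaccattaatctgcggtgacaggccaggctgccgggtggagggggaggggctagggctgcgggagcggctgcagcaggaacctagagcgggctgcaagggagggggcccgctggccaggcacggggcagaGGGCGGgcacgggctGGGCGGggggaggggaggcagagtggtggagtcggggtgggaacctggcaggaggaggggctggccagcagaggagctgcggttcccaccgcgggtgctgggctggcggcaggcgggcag
The Kcna5 window is chr6:126535506-126535805 (-), and its start lies 143 bases upstream of the GENCODE transcript. The Kcnip2 window is chr19:45816014-45816313 (-), at the start of Kcnip2-209. The Kcnh2 window, chr5:24329542-24329841 (-), is the start of the shorter transcript Kcnh2-202 and lies inside the gene. GGGCGG had 0 matches in Kcna5, 2 in Kcnip2, and 3 in Kcnh2, and was found in 5 of the 7 members and in 35.7% of all 32851 promoters of this length. GGGTG was found in all 7 members and in 57.5% of promoters. CACGTG was found in Kcnj2 alone of the members and in 7.15% of promoters, and neither TGANTCA (7.81% of promoters) nor TATAAA (13.6%) matched a member. Both strands were read and no match overlapped another motif. A match or its absence describes only the letters of this window.

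Among the members, levels per transcript length spanned a wide range. In TPM, the median over the 18 libraries was 69.0 for Kcnip2, 41.8 for Abcc9, 41.2 for Kcnj11, 23.1 for Kcnh2, 13.4 for Kcnq1, 8.17 for Kcna5, 8.02 for Kcnj2, 5.53 for Kcnd2, and 2.23 for Kcnd3. The auxiliary subunit Kcnip2 thus had more transcripts than the Kv4 pores it binds in every library, with a TPM ratio of Kcnip2 to the sum of Kcnd2 and Kcnd3 between 5.25 and 18.3. Kcnj11 and Abcc9, whose products assemble in equal number, were nearly equal, with a TPM ratio between 0.813 and 1.24. These ratios were chosen after the values had been seen and carry no test. Estimated counts per library were lowest for Kcnd3 (164 to 750, median 386), Kcna5 (373 to 1576, median 618), and Kcnd2 (209 to 1550, median 694).

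The libraries held 22552581 to 46236771 estimated counts, of which 22.7% to 34.4% came from the mitochondrial genome. This share was 32.0% to 34.4% in the 6 libraries of 8 h, 24.9% to 27.7% at 4 h, and 22.7% to 32.6% at 0 h, where the third RV library was highest. Leaving the mitochondrial genes out of the fit changed no call of a member. The part of this share in the 8 h values was not tested otherwise. The 10 ventricular cardiomyocyte markers were all present, and Cd3e of the 7 leukocyte markers stayed under 1 TPM in every library. The third RV library of 8 h stood apart. Its summed cardiomyocyte markers reached 32682 CPM, against 55308 and 64597 CPM in the other RV 8 h libraries and 67117 to 76590 CPM in RV at 0 h. In LV the sum was 66406 to 79109 CPM at 0 h and 49142 to 60553 CPM at 8 h. None of the 10 markers passed the test in RV after 8 h and 1 (Myh6, lower) did in LV, while the median log2 change of the list was -0.33 in RV and -0.25 in LV. The part of this shift in the members' values was tested only by scaling to these markers, given below. Red cell markers had a median log2 change of 3.80 in LV (2 of 3 called) and 2.91 in RV (0 of 3, 3 with the block) after 8 h. Of the 6 fibroblast markers 1 rose in RV (Tcf21, log2 0.98) and of the 6 endothelial markers 1 fell (Egfl7, edgeR adjusted p 0.02), with none of either called in LV. The part of these markers in the members' values was not tested. In whole ventricle, fewer cardiomyocytes and less RNA per cardiomyocyte cannot be told apart.

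Storage with reperfusion was followed by a rise of Kcna5 in LV and by lower values of most of the other members, of which Kcnip2 and Kcnh2 passed the test in RV after 8 h. A gene was called where edgeR's quasi-likelihood test gave more than a 1.5-fold difference together with a Benjamini-Hochberg adjusted p below 0.1. For single members it is also told below whether the libraries of compared groups overlapped. The share of all genes whose levels did not overlap is not given here, so such statements have no background beside them. In LV, 1 of the 9 members rose after 4 h and 1 after 8 h, in each case Kcna5. Over all 14564 genes tested in LV, 2.4% were called higher after 4 h and 5.46% after 8 h. None of the members was called lower by edgeR, against 0.398% and 1.26% of all genes. Kcna5 included, 2 members and 2271 genes after 4 h, and 7 members and 3396 genes after 8 h, had an unadjusted p under 0.05. DESeq2 called Kcnd2 (adjusted p 0.0848) and Kcnh2 (0.082) lower after 8 h beside the rise of Kcna5, and called 1500 of all genes there. DESeq2 counts of all genes, here and below, join both directions. The number of genes it tested is not given, so they are not shares. In RV no member was called after 4 h, against 10.1% of the 14622 genes in either direction. An unadjusted p under 0.05 was reached there by 1 member and 3142 genes, and DESeq2 called no member and 1962 of all genes. After 8 h in RV, 1 member rose and 2 fell, against 13% of all genes called higher and 5.26% called lower. There DESeq2 called 4 members, with Kcnj11 added as lower (adjusted p 0.0997), and 3025 of all genes. The median log2 change of the 9 members after 8 h was -0.41 in LV and -0.68 in RV, beside -0.02 and -0.07 over all genes tested. Between 4 h and 8 h no member was called in either ventricle, and neither was any of all genes (0%) by edgeR. An unadjusted p under 0.05 was reached by 3 members and 1180 genes in LV, and by 1 member and 961 genes in RV. DESeq2 called none of the members either, and 71 of all genes in LV and 43 in RV.

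**Figure D1:**
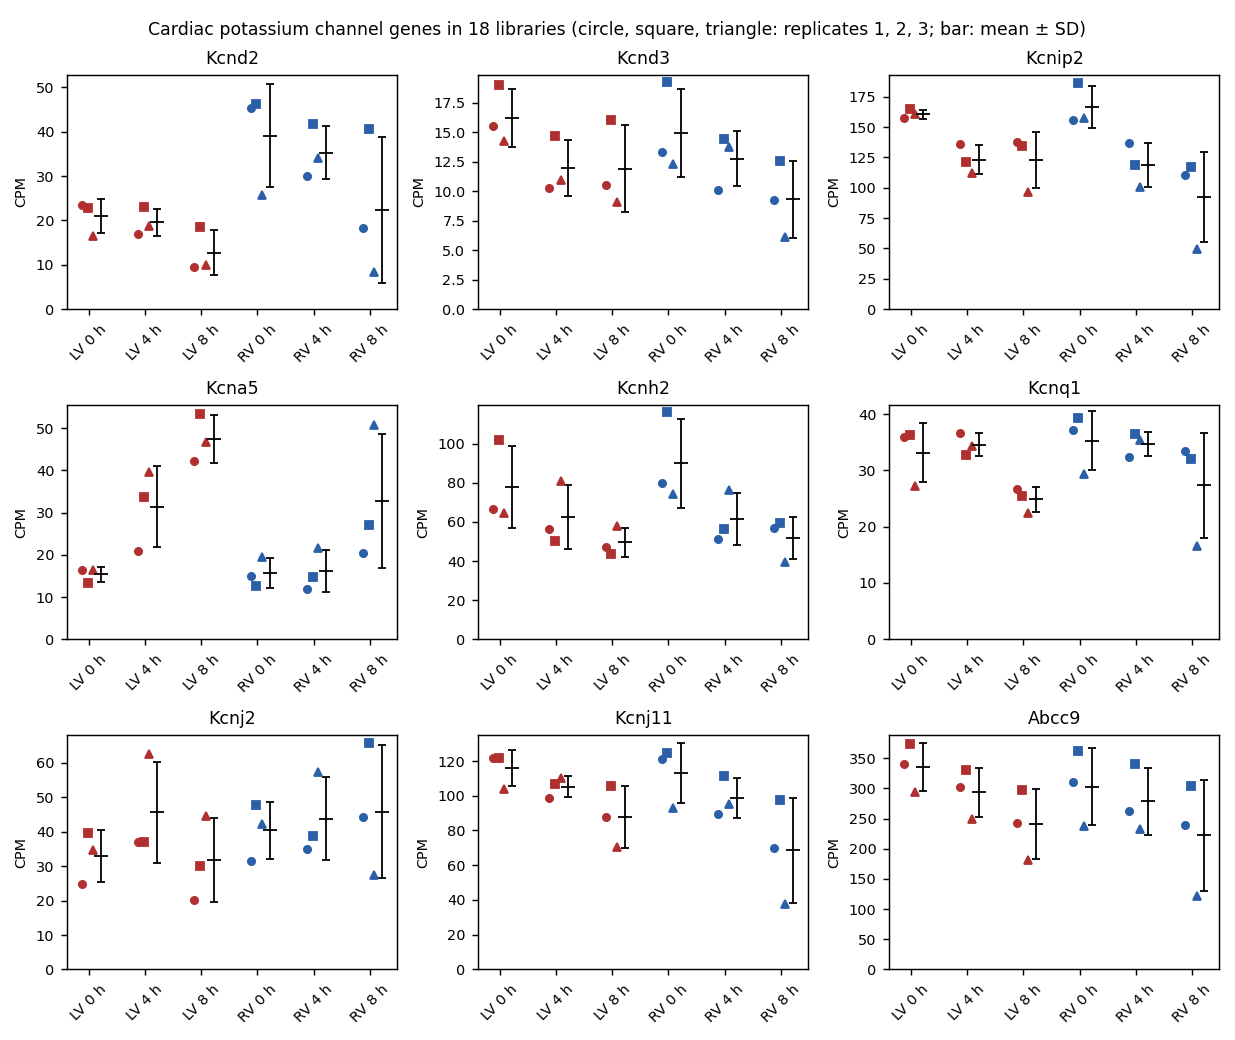
Level of each potassium channel gene in CPM (linear axis) by ventricle and storage time, with each library as a point (red for LV, blue for RV) and the mean ± SD of 3 libraries as a bar. Kcna5 reached 42.1 to 53.4 CPM in LV at 8 h against 13.4 to 16.5 CPM at 0 h, and the third RV library of 8 h (triangle) is the lowest of its group for every member except Kcna5.

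**Figure D2:**
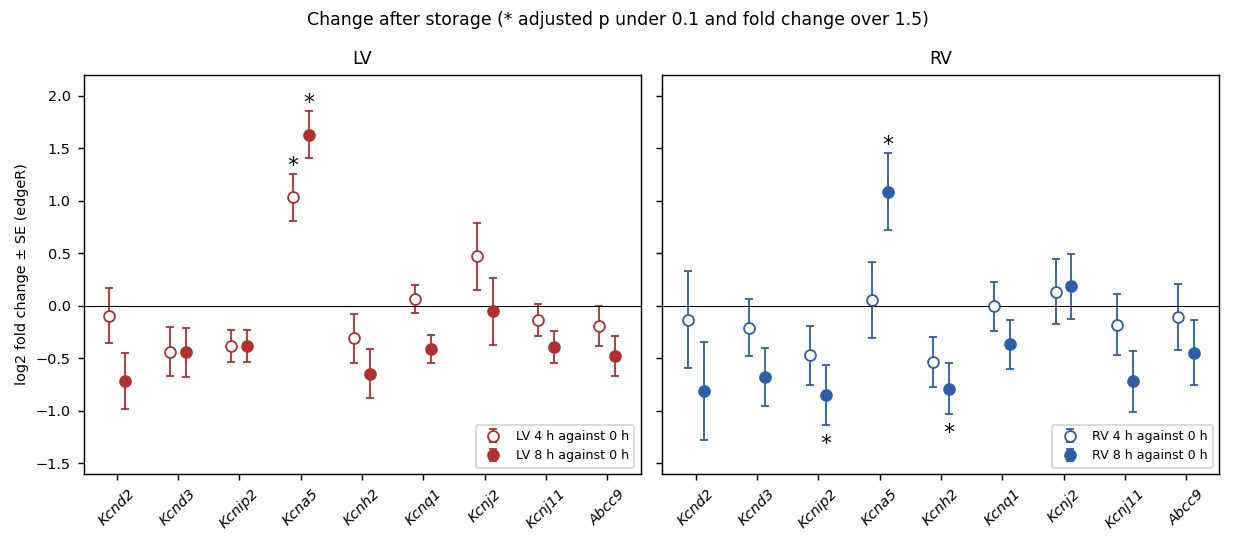
The log2 fold change ± SE from edgeR is shown for each member after 4 h (open) and 8 h (filled) against 0 h, in LV on the left and in RV on the right, with an asterisk where the gene was called. Kcna5 is the member called in LV, and Kcnip2, Kcna5, and Kcnh2 are called in RV after 8 h.

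In RV, libraries with the same replicate number deviated together, though weakly against 0 h (Pearson r across genes of 0.148 to 0.329). Differently numbered RV libraries ranged from -0.606 to 0.312, and what a number marks is not given. The fit with the number as a block called 6 members after 8 h instead of 3. Of these, 5 were lower (Kcnd2, Kcnd3, Kcnip2, Kcnh2, and Kcnj11), against 8.81% of all genes called lower with the block, and Kcna5 was higher, against 15.5% called higher. The RV result leaned on the third library of 8 h. Without that library, 0 members were called without the block and 2 with it, Kcnip2 (log2 -0.62, adjusted p 0.0416) and Kcna5 (log2 0.80, adjusted p 0.0335). Without the second RV library of 8 h, in which 7 of the 9 members were highest of the group, 6 members were called without the block. Other single libraries also decided the count, which was 0 without the second RV library of 0 h, and 1 without the first or the third RV library of 0 h, the second of 4 h, or the first of 8 h. With the block it was 2 without the first RV library of 0 h and 7 without the second of 8 h. In these blocked fits Kcnh2 was lost without the first or the second library of 0 h (adjusted p 0.115 and 0.162) or the last of 8 h (0.166), while Kcnip2 and Kcna5 were called without the last of 8 h. The share of all genes called in fits with a library left out is not given here, so these counts have no background beside them.

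Kcnd2 (chr6:21215503-21729805, + strand), the Kv4.2 pore of the fast transient outward current, was higher in RV than in LV and lower after 8 h than at 0 h in most libraries. In LV it read 23.4, 22.8, and 16.5 CPM at 0 h, 16.9, 22.9, and 18.8 CPM at 4 h, and 9.47, 18.6, and 10.0 CPM at 8 h, in order of replicate number. In RV it read 45.3, 46.2, and 25.8 CPM at 0 h, 29.9, 41.8, and 34.0 CPM at 4 h, and 18.3, 40.5, and 8.30 CPM at 8 h. The 0 h and 8 h groups overlapped in each ventricle through the second library of 8 h. The log2 change after 8 h was -0.72 ± 0.27 (SE) in LV (edgeR adjusted p 0.155) and -0.81 ± 0.47 in RV (adjusted p 0.255). The RV value was -0.41 without the third library of 8 h (adjusted p 0.548) and -1.56 without the second, where it was called (adjusted p 0.0219). With the block in RV it was -0.97 (adjusted p 0.0793), and it was not called without the third library of 8 h (log2 -0.61, adjusted p 0.232), the first of 8 h (0.209), the first (0.241) or the third (0.158) of 0 h, or the first of 4 h (0.116).

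Kcnd3 (chr3:105452330-105674002, + strand), the Kv4.3 pore of the same current, was of similar level in both ventricles. Its LV mean was 16.2 ± 2.46 CPM (SD, n = 3) at 0 h, 12.0 ± 2.36 CPM at 4 h, and 11.9 ± 3.69 CPM at 8 h. In RV the mean was 14.9 ± 3.76, 12.8 ± 2.31, and 9.32 ± 3.25 CPM. The groups overlapped at each step. After 8 h the log2 change was -0.44 ± 0.23 (SE) in LV (edgeR adjusted p 0.278) and -0.68 ± 0.27 in RV (adjusted p 0.132), and the block brought RV to an adjusted p of 0.0475, lost again without the third library of 8 h (adjusted p 0.131) or the first or the second of 0 h (0.13 and 0.124).

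Kcnip2 (chr19:45791839-45816061, - strand), the calcium-binding partner of the Kv4 pores, was lower in every stored library than in every 0 h library, counting all its transcripts. It read 157, 165, and 161 CPM in LV at 0 h, against 136, 121, and 112 CPM at 4 h and 138, 134, and 96.4 CPM at 8 h. In RV it read 156, 187, and 158 CPM at 0 h, 137, 118, and 101 CPM at 4 h, and 111, 117, and 49.4 CPM at 8 h. The fall in RV after 8 h passed the test, with a log2 change of -0.85 ± 0.28 (SE) and an adjusted p of 0.0811 (edgeR, Benjamini-Hochberg). In LV the log2 change was -0.38 after both times, with adjusted p of 0.259 and 0.169. The RV call was kept in 2 of 9 fits that left out 1 library, those without the third library of 4 h or the second of 8 h. In the other 7 the log2 change lay between -0.98 and -0.54 and the adjusted p between 0.0887 and 0.227.

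Part of the lower Kcnip2 value lay in 1 transcript that keeps an intron and encodes no annotated protein. This transcript, Kcnip2-204, held 11.8%, 15.5%, and 16.7% of the Kcnip2 counts in LV at 0 h and 14.2%, 19.7%, and 21.9% in RV. In the 12 stored libraries it held 3.03% to 7.42%, so that stored and 0 h libraries did not overlap in either ventricle. In LV its level was 23.6 ± 4.37 CPM (SD, n = 3) without storage and 5.04 ± 0.127 CPM after 4 h. In RV the same levels were 31.1 ± 7.88 and 4.85 ± 0.248 CPM. Only tested genes with a median retained-intron share of at least 3% over all libraries were compared. That rule can drop genes whose share fell under 3% after storage. Over the 3690 genes kept, 3.14% in LV and 4.63% in RV had a lower retained-intron share in every stored library than in every 0 h library, and 2.3% and 1.95% had a higher one. The ratio of the mean share at 0 h to that after storage was 3.09 in LV and 4.62 in RV for Kcnip2, beside medians of 1 and 1.06, and 17 and 7 genes had a larger ratio. Over all genes together, retained-intron transcripts held 1.90% to 2.16% of LV counts at 0 h and 1.69% to 2.47% after storage. This transcript was singled out after its values were seen. With protein-coding transcripts alone, the RV change of Kcnip2 after 8 h was -0.61 on the log2 scale with an adjusted p of 0.164. In LV it was then -0.22 after 4 h and after 8 h (edgeR adjusted p 0.522 and 0.356). Without Kcnip2-204, the first RV library of 4 h lay above the third of 0 h, so stored and 0 h libraries of RV overlapped. The coding transcripts Kcnip2-209 and Kcnip2-202 split the rest, with Kcnip2-202 at 14.01% to 27.9% at 0 h and 25.2% to 66.1% at 8 h, highest in the third RV library. How reads are divided between such overlapping transcripts is an estimate.

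**Figure D3:**
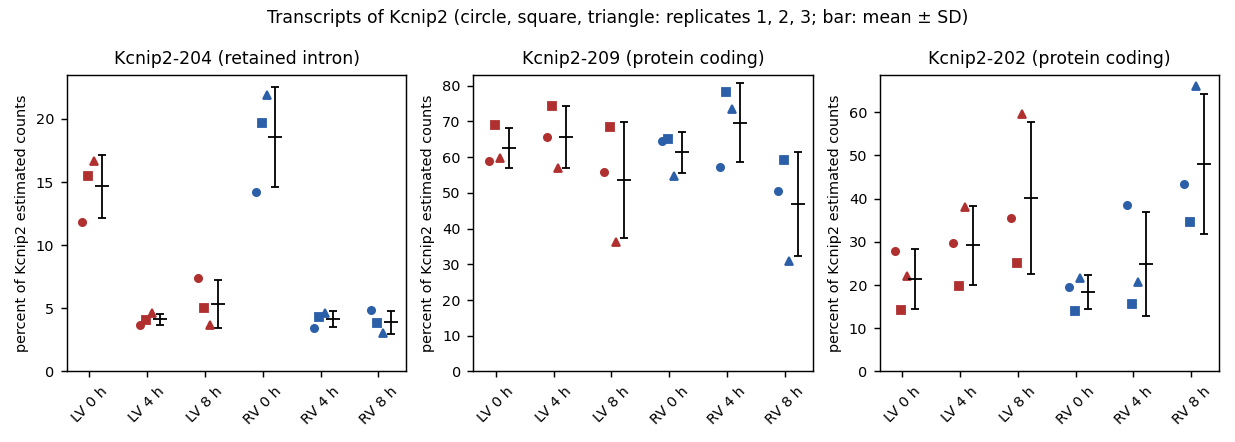
Share of the Kcnip2 estimated counts, in percent on a linear axis, held by the retained-intron transcript Kcnip2-204 and the coding transcripts Kcnip2-209 and Kcnip2-202, by group, with libraries as points and mean ± SD as bars. Kcnip2-204 lies at 11.8% to 21.9% in the 0 h libraries and at 3.03% to 7.42% in the stored ones.

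Kcna5 (chr6:126532551-126535412, - strand), the Kv1.5 pore of the ultrarapid current, was the member that rose. In LV it read 16.5, 13.4, and 16.3 CPM at 0 h, 20.8, 33.8, and 39.6 CPM at 4 h, and 42.1, 53.4, and 46.7 CPM at 8 h. All LV libraries of 4 h lay above those of 0 h, and all of 8 h lay above those of 4 h. How many of all genes were separated in this way is not given. The log2 change in LV was 1.03 ± 0.22 (SE) after 4 h with an adjusted p of 0.0652, and 1.63 ± 0.22 after 8 h with an adjusted p of 0.0105 (edgeR, Benjamini-Hochberg). The 8 h call held in all 9 fits that left out 1 library, with log2 changes of 1.53 to 1.70. The 4 h call was lost without the second or the third library of 0 h or of 4 h, with adjusted p between 0.144 and 0.301 and log2 changes of 0.82 to 1.07.

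In RV Kcna5 read 15.03, 12.6, and 19.5 CPM at 0 h, 11.9, 14.9, and 21.6 CPM at 4 h, and 20.5, 27.0, and 50.7 CPM at 8 h. The 4 h libraries overlapped those of 0 h, and the 8 h libraries all lay above 0 h, the lowest by a narrow margin. The log2 change was 0.05 ± 0.36 (SE) after 4 h (adjusted p 0.97) and 1.09 ± 0.36 after 8 h (adjusted p 0.0815, edgeR). Without the third library of 8 h, the RV change was 0.60 with an adjusted p of 0.234, and with the block it was 0.80 with an adjusted p of 0.0335. Without the block, the call was also lost without any library of 0 h (adjusted p 0.13 to 0.24) or the second of 4 h (0.114). The library with the highest Kcna5 of RV was the one with the lowest cardiomyocyte markers. Kcna5 is also known from atrial muscle and leukocytes. The summed 5 atrial markers overlapped between 0 h and 8 h, at 127 to 296 and 263 to 357 CPM in LV and at 111 to 376 and 119 to 805 CPM in RV. The highest atrial sum was in the first RV library of 8 h, where Kcna5 was lowest of its group. Of 6 leukocyte markers tested in LV, 2 rose after 8 h, and of 5 in RV, 2 rose. Their summed level was 68.0 to 106 CPM at 0 h and 82.2 to 137 CPM at 8 h in LV, and 85.9 to 136 and 94.8 to 180 CPM in RV. Their part in the Kcna5 values was not tested.

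Kcnh2 (chr5:24319589-24351604, - strand), the pore of the rapid delayed rectifier, was lower after 8 h of storage in both ventricles and passed the test in RV. It read 66.8, 102, and 64.7 CPM in LV at 0 h with 56.6, 50.1, and 81.2 CPM at 4 h and 47.1, 43.8, and 57.8 CPM at 8 h. In RV it read 79.7, 116, and 74.4 CPM at 0 h, 51.2, 56.5, and 76.5 CPM at 4 h, and 57.0, 59.2, and 39.4 CPM at 8 h. The 0 h and 8 h groups did not overlap in either ventricle, while those of 0 h and 4 h overlapped in both. The log2 change after 4 h was -0.31 ± 0.23 (SE) in LV (edgeR adjusted p 0.585) and -0.53 ± 0.24 in RV (adjusted p 0.232). The log2 change after 8 h was -0.65 ± 0.23 (SE) in LV (edgeR adjusted p 0.147) and -0.79 ± 0.24 in RV (adjusted p 0.0592). The RV call was kept in 6 of 9 fits that left out 1 library, and was lost without the second library of 0 h (adjusted p 0.214), the first of 8 h (0.111), or the last of 8 h (0.158). It was also lost with transcript length offsets, at log2 -0.58 and an adjusted p of 0.139. The long transcript Kcnh2-201 held 45.8% ± 17.4 (SD, n = 3) of the counts in RV at 8 h and 59.6% ± 18.3 at 0 h, with wide overlap.

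Kcnq1 (chr7:143106362-143427042, + strand), the pore of the slow delayed rectifier, changed little until 8 h. Its LV libraries read 35.9, 36.4, and 27.2 CPM at 0 h, 36.7, 32.7, and 34.3 CPM at 4 h, and 26.8, 25.5, and 22.4 CPM at 8 h. All LV libraries of 8 h lay below those of 0 h, the highest of them only just. The log2 change in LV after 8 h was -0.41 ± 0.13 (SE) with an adjusted p of 0.12, and in RV it was -0.36 ± 0.23 with an adjusted p of 0.298 (edgeR). In RV it read 37.1, 39.3, and 29.4 CPM at 0 h, 32.4, 36.5, and 35.4 CPM at 4 h, and 33.4, 32.0, and 16.6 CPM at 8 h, and the groups overlapped. Without the third library of 8 h the RV change was -0.10.

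Kcnj2 (chr11:111066164-111076821, + strand), the Kir2.1 pore of the inward rectifier, showed no ordered change. Its means were 33.0 ± 7.53 CPM (SD, n = 3), 45.6 ± 14.7, and 31.7 ± 12.2 CPM in LV at 0, 4, and 8 h, and 40.4 ± 8.23, 43.8 ± 12.0, and 45.8 ± 19.2 CPM in RV. The groups overlapped throughout, and the log2 change after 8 h was -0.05 ± 0.32 (SE) in LV and 0.19 ± 0.31 in RV, with adjusted p of 0.932 and 0.689 (edgeR).

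The subunits of the ATP-sensitive channel, Kcnj11 (chr7:46093953-46100764, - strand) and Abcc9 (chr6:142587862-142702315, - strand), were both lower at 8 h than at 0 h in the means of each ventricle. Kcnj11 read 122, 122, and 104 CPM in LV at 0 h and 87.8, 106, and 70.3 CPM at 8 h, and in RV 121, 125, and 93.1 CPM at 0 h and 70.1, 97.7, and 37.7 CPM at 8 h. Abcc9 read 341, 373, and 294 CPM in LV at 0 h and 243, 298, and 181 CPM at 8 h, and in RV 310, 363, and 237 CPM at 0 h and 240, 304, and 122 CPM at 8 h. At 4 h Kcnj11 lay between 89.5 and 111 CPM and Abcc9 between 234 and 340 CPM over both ventricles. Their TPM ratio was 0.813 to 0.870 in RV at 8 h, below the RV libraries of 0 h (0.954 to 1.08) and 4 h (0.901 to 1.13), and 0.975 to 1.11 in LV at 8 h. For both genes the second library of 8 h reached into the 0 h range in each ventricle. After 8 h the log2 change of Kcnj11 was -0.40 ± 0.15 (SE) in LV (edgeR adjusted p 0.168) and -0.72 ± 0.29 in RV (adjusted p 0.132). The block brought Kcnj11 in RV to an adjusted p of 0.043, and without the third library of 8 h it was below the fold threshold (log2 -0.51). That call was also lost without the first (adjusted p 0.14) or the third (0.118) library of 0 h or the first of 8 h (0.11). Abcc9 changed by -0.48 ± 0.19 in LV (adjusted p 0.178) and -0.45 ± 0.31 in RV (adjusted p 0.336), where it was -0.15 without the third library of 8 h.

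Abcc9 is also known from pericytes and smooth muscle, where its partner is Kcnj8. Kcnj8, which encodes Kir6.1, averaged 37.4 ± 4.48 CPM (SD, n = 3) in unstored LV and 19.2 ± 11.2 CPM after 8 h, beside 36.8 ± 5.17 and 13.2 ± 4.70 CPM for RV. It fell in RV after 8 h (log2 -1.48, edgeR adjusted p 0.0403), with a change of -0.95 in LV (adjusted p 0.345). The 8 pericyte and smooth muscle markers summed to 771 to 906 CPM in LV and 779 to 1022 CPM in RV at 0 h, and to 894 to 1028 and 900 to 1340 CPM at 8 h. After 8 h in RV, 3 of the 8 fell (Kcnj8 among them) and none rose, while with the block Tagln was also called higher (log2 0.74, edgeR adjusted p 0.0167). Their part in the Abcc9 values was not tested.

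Scaled to the cardiomyocyte markers instead of all genes, the members kept the rise of Kcna5 and lost the calls of lower values. This scaling moved the median log2 change of all genes after 8 h to 0.25 in LV and 0.40 in RV. Relative to that median, Kcna5 changed by 1.64 in LV and 1.31 in RV, and it was still called (edgeR adjusted p 0.00596 and 0.0673). On the scaled values themselves Kcnip2 changed by -0.49 in RV (adjusted p 0.12) and Kcnh2 by -0.36 (adjusted p 0.352), and neither was called. Relative to the median, they changed by -0.90 and -0.77. Kcnq1 in RV (0.03) and Kcnj2 in LV (0.24) had positive scaled values and read -0.38 and -0.01 relative to the median. Between LV and RV at 8 h, without pairing, the Kcna5 difference was 0.04 on the scaled values and 0.35 relative to a median of -0.31, beside 0.54 as scaled by all genes.

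Only with same-numbered libraries paired were Kcnd2 and, after storage, Kcna5 called between LV and RV. No member was called in the comparison of LV with RV at 0, 4, or 8 h without pairing, where 0.159%, 0.0133%, and 0.0331% of the 15093 genes were called. At an unadjusted p under 0.05 the members numbered 1, 1, and 0, and DESeq2 called none of them and 59, 24, and 182 of all genes. Same-numbered LV and RV libraries of a time deviated together (Pearson r across genes of 0.493 to 0.812), and with this pairing as a block 1, 2, and 2 members were called, against 1.85%, 1.93%, and 8.78% of all genes. Kcnd2 was lower in LV by log2 -0.88 ± 0.18 (SE) at 0 h, -0.85 ± 0.18 at 4 h, and -0.68 ± 0.19 at 8 h, with adjusted p of 0.0276, 0.0354, and 0.0272 (edgeR with the block). It was lower in LV than in RV in 8 of 9 pairs, the exception being the third pair of 8 h. Kcna5 was higher in LV by 0.95 ± 0.19 at 4 h and 0.63 ± 0.18 at 8 h, with adjusted p of 0.029 and 0.0302, and differed by -0.02 at 0 h. Each call rests on few pairs. Leaving out any pair of 0 h removed the Kcnd2 call at 0 h (adjusted p 0.109 to 0.237), and leaving out any pair of 4 h removed that at 4 h (0.143 to 0.236). At 8 h the Kcnd2 and Kcna5 calls were lost without the first pair (adjusted p 0.17 and 0.205) or the second (0.206 and 0.147). Kcna5 at 4 h was lost without the second pair (0.231) or the third (0.135). Other members became called at 8 h when a pair was left out, Kcnip2 and Kcnj11 as higher in LV without the second (log2 0.64 and 0.61, adjusted p 0.00991 and 0.00983) and Kcnj2 as lower in LV without the third (-1.12, adjusted p 1.01e-05).

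**Figure D4:**
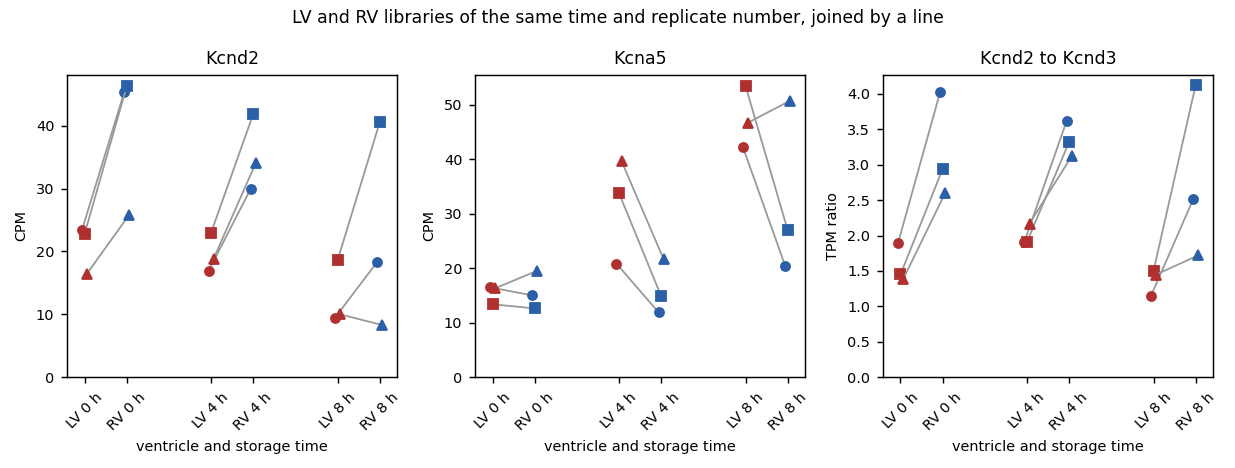
Kcnd2 and Kcna5 in CPM and the TPM ratio of Kcnd2 to Kcnd3 in LV (red) and RV (blue), on linear axes, with a line joining libraries of the same time and replicate number. The ratio is lower in LV in all 9 pairs, and Kcna5 is higher in LV in every 4 h pair.

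The balance of the Kv4 pores differed between the ventricles along with Kcnd2. The TPM ratio of Kcnd2 to Kcnd3 was 1.15 to 2.17 in LV and 1.72 to 4.12 in RV, and was lower in LV in 9 of 9 pairs, by a mean of -0.90 ± 0.35 (SD) on the log2 scale. Kcnd3 by itself was not called between ventricles, with log2 differences with the block of 0.14, -0.09, and 0.36 at 0, 4, and 8 h. The last had an adjusted p of 0.031 but lay under the fold threshold. Irx5, a transcription factor known to repress Kcnd2, was higher in LV than in RV with the block at 0 h (log2 0.77, edgeR adjusted p 0.0282) and 8 h (0.80, adjusted p 0.00765), and 0.53 with an adjusted p of 0.113 at 4 h. Irx5 averaged 8.15 ± 1.10 CPM (SD, n = 3) in unstored LV and 4.84 ± 1.12 CPM in unstored RV. The part of Irx5 in the Kcnd2 values was not tested.

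Whether the members changed differently in LV than in RV was tested as an interaction over the 18 libraries. None of the 9 members was called after 4 h or 8 h, and neither was any gene of all (0% at both times) without the block, while 158 and 628 of all genes and 1 and 0 members had an unadjusted p under 0.05, and DESeq2 called 0 and 2 of all genes. With the block 0.305% and 5.71% of genes were called, and again no member. For Kcna5 the change was larger in LV than in RV by log2 0.97 ± 0.27 (SE) after 4 h and 0.65 ± 0.27 after 8 h, at adjusted p of 0.213 and 0.174 (edgeR with the block). Kcnip2 had a lower adjusted p after 8 h (0.0893), with a difference of 0.54 ± 0.17 that lay under the fold threshold. Without the third pair of 8 h, in which Kcna5 was higher in RV, the Kcna5 difference was called after 4 h and after 8 h. It was 0.97 (adjusted p 0.00918) and 1.03 (adjusted p 0.000861). Kcnj2 was then also called at 8 h (-0.83, adjusted p 0.000195). Without the second pair, Kcnip2 passed both thresholds at 8 h (log2 0.68, adjusted p 0.0402). With all libraries in the fit, the Kcna5 changes of LV and RV are therefore not shown to differ.

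The order of the 6 groups was loose for most members. Ranked by mean CPM, the gap between neighbouring groups exceeded both SDs once each for Kcnd2 (LV at 4 h above LV at 8 h), Kcnip2 (LV at 0 h above LV at 8 h), and Kcna5 (LV at 4 h above RV at 4 h). Ranked by mean TPM it did so at other places, for Kcnd2 (RV at 4 h above LV at 0 h), Kcnip2 (LV at 0 h above LV at 4 h), Kcna5 (LV at 8 h above LV at 4 h), and Kcnq1 (RV at 4 h above RV at 8 h). Neighbours were never that far apart in either unit for Kcnd3, Kcnh2, Kcnj2, Kcnj11, or Abcc9.

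Of 89 further potassium channel and auxiliary genes listed by family, 46 were tested within each ventricle. In LV after 8 h none rose and 2 fell, against 5.46% and 1.26% of all genes. In RV 3 rose and 5 fell, against 13% and 5.26% of all genes. With the block 6 rose and 12 fell in RV, against 15.5% and 8.81%. After 4 h none was called in LV, against 2.4% of all genes higher and 0.398% lower. In RV 5 fell and none rose after 4 h, where 572 of all 14622 genes fell and 902 rose. Kcnj3 and Kcnj5, which form the acetylcholine-gated channel, fell in LV after 8 h by log2 -0.77 and -0.78 (edgeR adjusted p 0.0773 and 0.0506). In RV they read -0.96 and -0.82 and were not called without the block (adjusted p 0.147 and 0.192), and with it they were (0.0381 and 0.0328). In RV the voltage-gated subunits Kcna2 (-1.73) and Kcna6 (-1.09) fell and Kcns3 (1.59) rose, of 17 tested. Kcnip3, a relative of Kcnip2, fell by -1.52 in RV, and Kcne4, a small subunit that inhibits some Kv channels, rose by 1.87, of 8 auxiliary genes tested. The calcium-activated Kcnn2 fell by -1.02 (1 of 7) and the two-pore channel Kcnk5 rose by 1.26 (1 of 6). In LV none of those 7 genes was called after 8 h by edgeR without the block. None of the 7 was called for a difference in change between LV and RV without the block, while with it Kcna2 (log2 1.12, adjusted p 0.0318) and Kcne4 (-0.91, adjusted p 0.0314) were.

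Among 5 regulators known to act on these channel genes, Arntl, a core clock activator, rose after 8 h in LV (log2 2.04, edgeR adjusted p 0.0191) and RV (2.53, adjusted p 0.00619). Klf15, a clock-linked activator of Kcnip2, fell in RV after 8 h (log2 -0.88, adjusted p 0.0836) and 4 h (-0.997, adjusted p 0.0856). In LV it changed by -0.21 after 8 h (adjusted p 0.451). Its mean was 49.7 ± 10.6 CPM (SD, n = 3) in RV at 0 h and 26.9 ± 12.7 CPM at 8 h. None of 7 anchoring partners was called at either time in either ventricle. Of 15 other electrical genes, 1 fell after 8 h in LV (Cacna1c, the L-type calcium channel pore, log2 -0.63, adjusted p 0.0617) and 1 in RV (Gja5, connexin 40, log2 -0.60, adjusted p 0.0849), and none rose. With the block 4 fell in RV, where Cacna1c read -0.67 (edgeR adjusted p 0.0273).

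Genes whose log2 CPM followed each member most closely over the 18 libraries were sought among 9970 genes with a mean of at least 5 CPM. The highest Pearson r was 0.98 for Abcc9 (Pdpr) and Kcnj11 (Ric8b), 0.97 for Kcnip2 (Mat2b) and Kcnd2 (Sort1), 0.95 for Kcnq1 (Akt2), 0.94 for Kcnd3 (Miga1), 0.93 for Kcna5 (Plxnd1), 0.91 for Kcnh2 (Adamtsl4), and 0.86 for Kcnj2 (Klhl38). Among the members, Abcc9 and Kcnj11 were the closest pair (r = 0.93), and Kcna5 ran against Kcnq1 (r = -0.71). These values describe libraries that share groups, pairs, and the third RV library of 8 h, and carry no test.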

How the data were processed

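RNA-seq of 18 libraries was analysed from the authors' Kallisto output. The authors deposited, per transcript and library, estimated counts from pseudoalignment to GRCm38 transcripts, not normalized between libraries, and TPM values scaled within each library. The library kit marks strand, whereas Kallisto with default parameters, as the study's methods state, does not use it, so reads from opposite-strand genes (over 158 exon bases of Abcc9, 165 of Kcnd3, and 121 of Kcnq1) cannot be told apart. Transcripts were matched to GENCODE M21 (110203 of 111462, the rest holding at most 0.383% of counts), summed to genes, and rounded. Counts were filtered with filterByExpr, scaled by TMM, and tested with edgeR 4.0.16 (R 4.3.3) and its quasi-likelihood test, with Benjamini-Hochberg adjustment over all genes. Storage times were compared within the 9 libraries of a ventricle, ventricles within all 18. CPM uses the TMM-adjusted library sizes of all 18 libraries. TPM was used for levels between genes, transcript lengths only for length offsets. The test was checked on simulated counts. Intervals from counting alone are not given, because estimated counts are not independent molecules.

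Groups and replicate numbers came from the labels. The numbers were taken as pairs where every same-numbered pair correlated above 0.1 in its deviations. This held between ventricles (r 0.493 to 0.812) and within RV (0.148 to 0.554), and in LV between 4 h and 8 h (0.486 to 0.666), but not against LV 0 h. What a number marks is not given in the sources used here.

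All 9 members are named in each comparison. Other channel, regulator, anchoring, and electrical genes are named where called after 8 h (at most 4 in a family), and Klf15 and Irx5 in any case. Kcnj8, Kcna6, and marker genes are named beyond that where a result touched them. The coding stretch of 1 pore gene is not reported here. The members, lists, and rules were chosen with earlier results of these data known. Alternatives were DESeq2 1.42.0, other scalings, filters, thresholds, length offsets, and mitochondrial genes left out. Coding transcripts alone, libraries in the fit, the replicate block, and each library left out were further alternatives. Leaving out whole pairs with the block, the transcript shares, and the ratios were added after the data had been seen. Python 3.11.15 with pandas 2.3.3, numpy 2.4.6, and matplotlib 3.10.9 was used.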

Additional observations from a re-analysis of the deposited data

How the results depend on the processing

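Over 3231 fold changes of single members under alternatives, 2959 kept direction and side of the threshold, 57 were no longer called, 37 became called, and 178 uncalled values turned sign, while no called value did. The count of 1 member called in LV after 4 h became 0 at an adjusted p under 0.05 and with all 18 libraries in the fit (Kcna5 adjusted p 0.112), and ranged from 0 to 1 with single libraries left out. That of 1 in LV after 8 h became 2 with the replicate block, 3 with DESeq2, and 4 with total counts alone, and ranged from 1 to 4 with single libraries left out, with Kcnd2, Kcnd3, and Abcc9 added as lower without the second LV library of 8 h. LV replicate numbers did not pair the 0 h libraries, and the block added Kcnd2 (adjusted p 0.0539). That of 3 in RV after 8 h became 0 at an adjusted p under 0.05, 4 with DESeq2, and 5 with all 18 libraries. It became 6 with the replicate block or with total counts alone, and 1 with cardiomyocyte scaling or with length offsets. It ranged from 0 to 6 with single RV libraries left out, and from 2 to 7 with the block. Between ventricles, the counts of 0 became 1, 2, and 2 with the replicate block at 0, 4, and 8 h, and ranged from 0 to 1, 0 to 2, and 0 to 3 with the block and a pair left out. With the block and 1 library left out, RV 4 h against 0 h and RV 8 h against 4 h ranged from 0 to 1, while with a pair left out the interaction count lay at 0 to 1 for 4 h and 0 to 2 for 8 h. The block changed no other call of a member. For the fits with libraries left out or with other scalings, the share of all genes called is not given here. Total counts alone moved the median of all genes after 8 h to -0.17 in LV and -0.30 in RV. The causes were not tested. Kcnd3 had the fewest counts, and a change smaller than the spread between its libraries was not detectable here. The part of depth in that spread was not tested.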
